A study of Rattus norvegicus with 10 samples.

Results

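Cyclic nucleotide phosphodiesterases (PDEs) are the enzymes that end cAMP and cGMP signals by hydrolysing these messengers to inactive nucleotides. The gene families differ in which messenger they cut and in what switches them on, so that a neuron or glial cell sets its cAMP and cGMP levels by the mix of PDEs it expresses. The 10 genes described here were chosen by name as the members of families 1, 2, 5, 7, 8 and 9, which lie outside the families 3, 4, 10 and 11 that ibudilast is best known to inhibit. All 10 were among the 17168 rows of the count table and all 10 passed the low-count filter, among 12355 genes tested. Pde7a, Pde7b, Pde8a and Pde8b encode cAMP-specific enzymes, Pde5a and Pde9a cGMP-specific enzymes, and Pde1a, Pde1b, Pde1c and Pde2a enzymes that cut both messengers.

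RNA of the left hippocampus was sequenced from 10 male TgF-344AD rats, a transgenic Fischer line that models Alzheimer's disease, with 1 library per rat. Both groups carried the transgenes, so the comparison is within the disease model and no wild-type rats enter it. The 5 untreated rats ate rodent chow, and the other 5 ate ibudilast chow, started when they were 5 months old and kept up for 6 months. Hippocampi of both groups were collected at 11 months. Per the labels, ibudilast tissue had been kept in a frozen-tissue transition solution (RNAlater-ICE) and untreated tissue is not described so, so storage and treatment cannot be told apart.

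Libraries held 14806807 to 18533520 expected counts. Some libraries stood apart by marker genes. Choroid plexus markers summed to 8000 CPM (counts scaled to library size) in untreated replicate 2 and 7290 CPM in ibudilast replicate 1, against 25.8 to 358 CPM in the other 8. Untreated replicate 3 had the lowest sum of excitatory neuron markers in its group (5260 CPM, the others 6827 to 8001). It had the highest sums of all libraries for microglia (1022 CPM, other untreated rats 546 to 623), endothelial (595 CPM, others 321 to 421) and astrocyte markers (9561 CPM). Its oligodendrocyte sum was the lowest of all (7932 CPM). Ibudilast replicate 4 had the lowest excitatory neuron sum of all (1560 CPM, the other ibudilast rats 4318 to 6271), and the highest sums of thalamus markers (415 CPM, at most 97.1 in any other library) and of mural and smooth muscle markers (393 CPM, at most 242 in any other). Values without these 4 libraries are given beside those results whose call, sign or size moved most. Defining markers of the labelled tissue were present: Camk2a and Slc17a7 of excitatory neurons, C1ql2 of dentate granule cells and Fibcd1 of pyramidal cells were all measured.

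The transcripts divided into 3 that fell, 2 that rose and 5 that did not pass the test. Pde1a, Pde7b and Pde8b fell with ibudilast, Pde8a and Pde9a rose, and Pde1b, Pde1c, Pde2a, Pde5a and Pde7a did not pass (edgeR's quasi-likelihood test with Benjamini-Hochberg adjustment over all genes, adjusted p under 0.05). Of all genes tested, 22.8% were called lower, 24.3% higher and 47.1% in either direction. The share of these PDE genes called, 5 of 10, was thus close to the share of all genes. The groups did not overlap for 4 of the 10 genes, 1 of them higher and 3 lower with ibudilast, against 33.4% of all genes (18.0% higher and 15.4% lower). The median log2 fold change of the 10 genes was −0.18, against 0.020 over all genes, and the median absolute change was 0.39 against 0.36. All 5 calls stood under each of the 20 alternative settings, and the changes ranged from a 1.42-fold rise of Pde8a to a 2.05-fold fall of Pde1a. In bulk tissue, fewer cells of a type and less RNA per cell cannot be told apart.

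**Figure D1:**
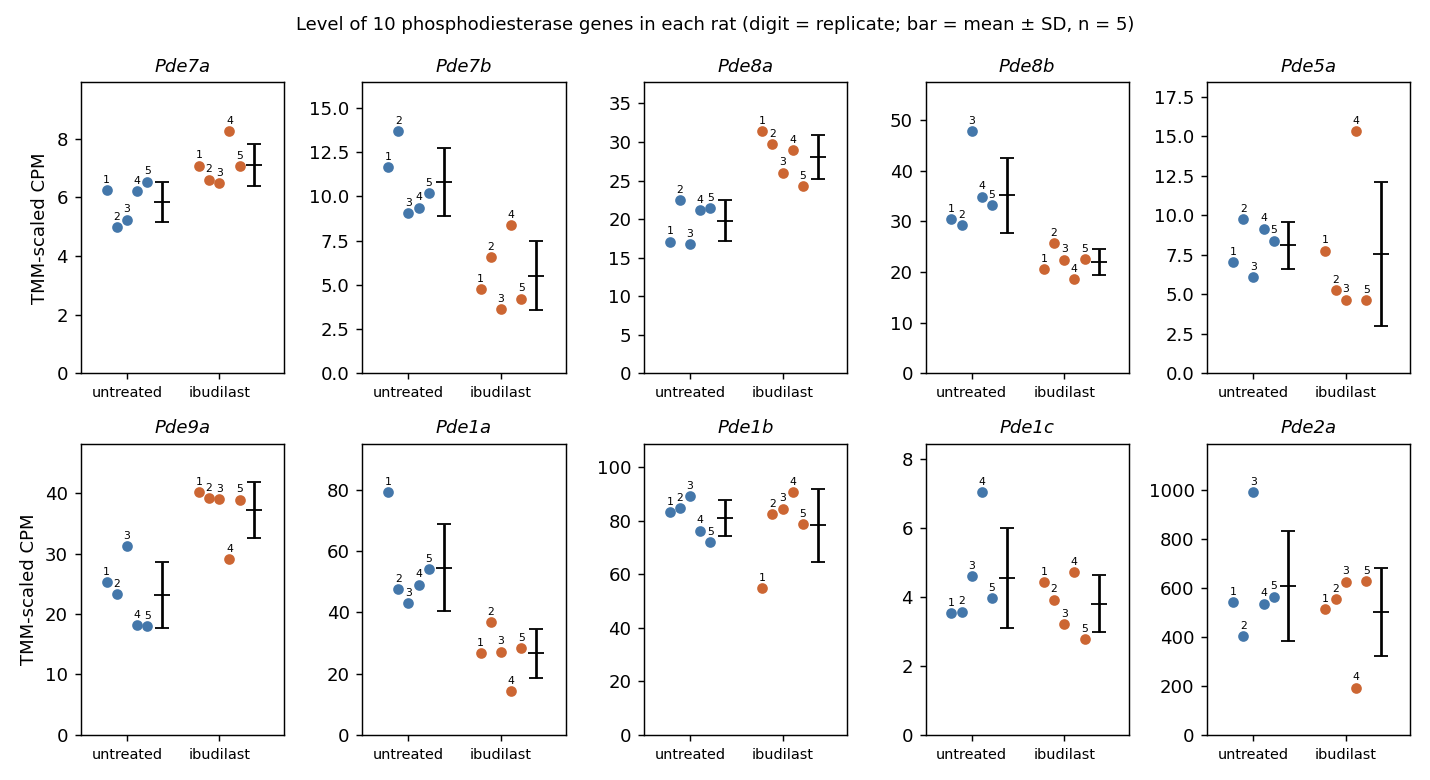
Level of each gene in every rat as TMM-scaled CPM on a linear axis from 0, with digits for replicate numbers and bars for the mean ± SD of 5 rats. The groups are apart for Pde7b, Pde8a, Pde8b and Pde1a, and ibudilast replicate 4 lies away from its group for Pde2a, Pde5a and Pde9a.

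Promoter sequences are shown for Pde8a and Pde8b, paralogs that moved in opposite directions, and for Pde1a, the gene with the greatest fall among the 10. Each is the 250 bases before the annotated start on the GRCr8 build, from RefSeq, read 5′ to 3′ on the gene's strand. The counts were made on another build, rn6. Capitals mark TGACG on either strand (CGTCA on the other), the core shared by binding sites of the cAMP-responsive factor CREB. The Pde8a window is chr1:144575219-144575468, plus strand, the Pde8b window chr2:28116052-28116301, minus strand, and the Pde1a window chr3:85431779-85432028, minus strand.
Pde8a: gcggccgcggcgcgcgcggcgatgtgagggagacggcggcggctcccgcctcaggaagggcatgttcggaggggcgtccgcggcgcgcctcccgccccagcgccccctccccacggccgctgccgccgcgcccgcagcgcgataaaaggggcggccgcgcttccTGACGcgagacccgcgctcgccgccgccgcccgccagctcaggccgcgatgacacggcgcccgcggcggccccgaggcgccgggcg
Pde8b: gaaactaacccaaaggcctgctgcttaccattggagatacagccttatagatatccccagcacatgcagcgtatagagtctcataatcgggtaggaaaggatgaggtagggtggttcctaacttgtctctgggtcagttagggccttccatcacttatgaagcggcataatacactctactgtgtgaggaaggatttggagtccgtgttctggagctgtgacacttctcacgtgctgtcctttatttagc
Pde1a: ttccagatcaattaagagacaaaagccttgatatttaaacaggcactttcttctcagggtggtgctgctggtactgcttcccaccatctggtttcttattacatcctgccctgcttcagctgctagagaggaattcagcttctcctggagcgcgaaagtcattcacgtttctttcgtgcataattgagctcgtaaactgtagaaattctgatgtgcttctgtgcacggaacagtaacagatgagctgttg
The Pde8a window held this core once, beginning 86 bases before the start, and the windows of Pde8b and Pde1a held none. Over 33469 promoter windows of this length in the table, 18.2% held the core and 1.59% held the full CRE, TGACGTCA, which contains it. Windows were at hand for 6 of the 10 genes (7 windows, Pde2a having a pair), of which 1 held the core and 0 the full CRE. The GC box GGGCGG, searched on both strands, was in 3 of the 7 and in 30.5% of all windows, with 3 matches in Pde8a and 0 in Pde8b and Pde1a. The Pde8a window was 82.4% G and C, the Pde8b window 47.6% and the Pde1a window 44.8%, against a median of 51.2%. These matches describe the letters only.

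Of the cAMP-specific genes, Pde8a and Pde8b moved in opposite directions, while of the PDE7 pair only Pde7b passed. PDE8 enzymes bind cAMP with high affinity and are insensitive to the general inhibitor IBMX. Pde8a was at 17.1, 22.4, 16.7, 21.1 and 21.4 CPM in untreated replicates 1 to 5 and at 31.4, 29.7, 26.0, 28.9 and 24.3 CPM in the ibudilast replicates. Every ibudilast rat lay above every untreated rat. The group means were 19.8 ± 2.65 and 28.1 ± 2.88 CPM (SD, n = 5), a log2 fold change of 0.51 ± 0.11 (SE; edgeR, adjusted p = 0.00336). Pde8b went the other way, with 30.5, 29.3, 47.9, 34.9 and 33.2 CPM in untreated and 20.6, 25.7, 22.5, 18.6 and 22.6 CPM in ibudilast rats. The groups did not overlap here either, and untreated replicate 3 was the highest. Pde8b fell by 0.68 ± 0.14 on the log2 scale (edgeR, adjusted p = 0.00269), and by 0.48 without the 4 libraries that stood apart.

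PDE7 enzymes are cAMP-specific and known from T cells and brain. Pde7b was at 11.7, 13.7, 9.05, 9.35 and 10.2 CPM in untreated and at 4.78, 6.55, 3.63, 8.39 and 4.23 CPM in ibudilast rats. The groups were apart by a narrow gap, between untreated replicate 3 and ibudilast replicate 4. The means were 10.8 ± 1.91 and 5.51 ± 1.94 CPM (SD, n = 5), and the gene fell by 0.97 ± 0.23 on the log2 scale (edgeR, adjusted p = 0.00562). Pde7a was at 6.25, 5.00, 5.24, 6.21 and 6.54 CPM in untreated and at 7.08, 6.61, 6.49, 8.27 and 7.06 CPM in ibudilast rats. Only ibudilast replicate 3 and untreated replicate 5 overlapped. The log2 fold change of 0.28 ± 0.12 had an unadjusted p of 0.0458 in edgeR's test and did not pass after adjustment (adjusted p = 0.0861), and without the 4 libraries it was 0.086. These are low counts, 52 to 260 expected counts of Pde7b and 84 to 140 of Pde7a per library.

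The difference between paralogs was tested as the log2 ratio of a pair within each library, which no library scaling can change apart from the small prior count. Transcript length also enters such a ratio, so that its change between groups is of interest and its level is not. The Pde8a to Pde8b log2 ratio was −0.81 ± 0.42 in untreated and 0.35 ± 0.25 in ibudilast rats (SD, n = 5). Its values were −1.51 to −0.38 and 0.11 to 0.63, with no overlap (exact permutation test, two-sided, p = 0.00794, the smallest that 5 against 5 rats allow, adjusted p = 0.0198 over 5 ratios). Pde8a was higher and Pde8b lower in every ibudilast rat than in any untreated rat. This p was therefore fixed by the values already given and is no further support. The Pde7a to Pde7b log2 ratio was −0.86 ± 0.34 and 0.42 ± 0.40, again with no overlap (exact permutation test, p = 0.00794, adjusted p = 0.0198). The ranges of Pde7a and Pde7b given above left this ratio no room to overlap, so its p is no further support either. The ratios thus shifted towards the A paralog, 2.25-fold for PDE8 and 2.43-fold for PDE7. Ratios of genes outside these families were not taken, so the share of all gene pairs that shift this far is not known. Of all genes tested, 47.1% were called in either direction, and the groups did not overlap for 33.4%.

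**Figure D2:**
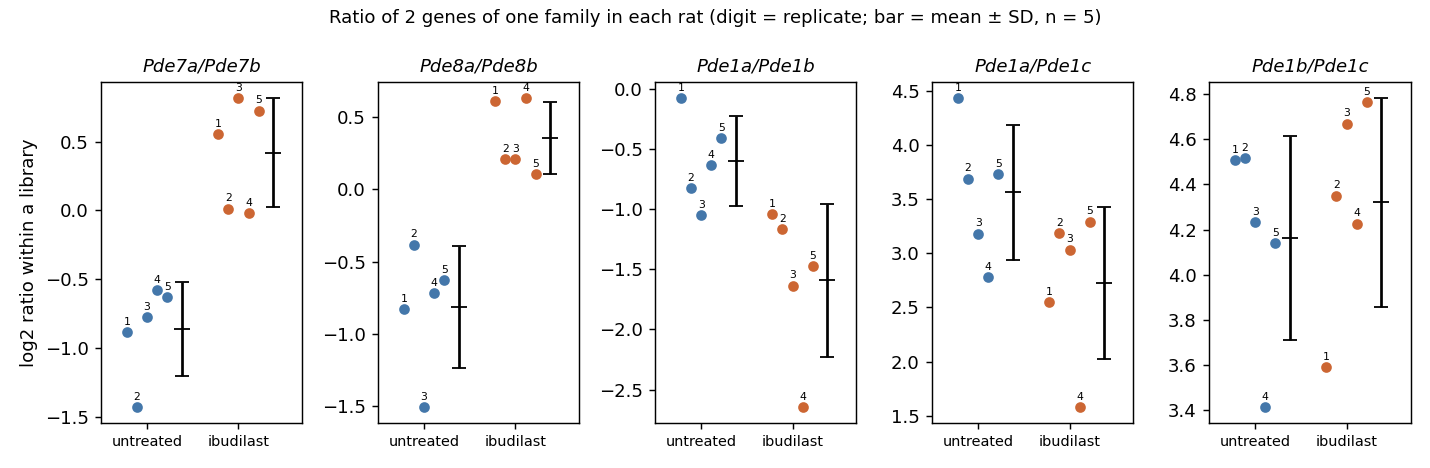
Log2 ratio of 2 genes of 1 family in each rat, with digits for replicate numbers and bars for the mean ± SD of 5 rats; vertical axes differ between panels and do not start at 0. The groups are apart for Pde7a/Pde7b and Pde8a/Pde8b and overlap for the 3 ratios of PDE1 genes.

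Of the cGMP-specific genes, Pde9a rose. PDE9A has the highest affinity for cGMP of the family and has been studied as a drug target in memory and dementia. It was at 25.3, 23.3, 31.2, 18.1 and 18.1 CPM in untreated and at 40.2, 39.2, 39.1, 29.1 and 39.0 CPM in ibudilast rats. Untreated replicate 3 was above ibudilast replicate 4, and the groups were otherwise apart. The means were 23.2 ± 5.49 and 37.3 ± 4.63 CPM (SD, n = 5), a log2 fold change of 0.68 ± 0.16 (edgeR, adjusted p = 0.00494), and 0.93 without the 4 libraries that stood apart.

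Pde5a, which encodes the sildenafil-sensitive enzyme of vascular smooth muscle, did not pass with all rats and depended on a single library. It was at 7.03, 9.79, 6.12, 9.16 and 8.41 CPM in untreated and at 7.77, 5.30, 4.67, 15.4 and 4.63 CPM in ibudilast rats. Ibudilast replicate 4 was the highest of all 10, while ibudilast replicates 2, 3 and 5 were below every untreated rat. The log2 fold change was −0.10 (95% interval −0.83 to 0.63; edgeR, adjusted p = 0.827) with all rats, −0.55 without ibudilast replicate 4 (adjusted p = 0.0455) and −0.75 without the 4 libraries (adjusted p = 0.00239). Of 9 mural and smooth muscle markers tested, 0 rose and 3 fell (24.3% and 22.8% of all genes). These markers summed to 138 to 242 CPM in untreated rats and to 110 to 152 CPM in ibudilast rats other than replicate 4, where the sum was 393 CPM. None of the 10 listed was at 0 in all libraries. The part of these cells in the Pde5a values was not tested.

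Among the dual-specificity genes, Pde1a fell and its relatives did not pass. PDE1 enzymes are switched on by calcium and calmodulin, and so tie cyclic nucleotide breakdown to neuronal calcium entry. Pde1a was at 79.1, 47.6, 42.9, 49.0 and 54.2 CPM in untreated and at 26.6, 36.7, 27.1, 14.4 and 28.2 CPM in ibudilast rats. The groups did not overlap, with untreated replicate 1 the highest and ibudilast replicate 4 the lowest. The means were 54.6 ± 14.3 and 26.6 ± 7.97 CPM (SD, n = 5), and the gene fell by 1.04 ± 0.24 on the log2 scale (edgeR, adjusted p = 0.00467), with −1.18 to −0.87 when single rats were left out.

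Pde1b was at 72.1 to 89.0 CPM in untreated rats (median 83.3) and at 54.8 to 90.6 CPM in ibudilast rats (median 82.4). The log2 fold change was −0.052 (95% interval −0.33 to 0.22; edgeR, adjusted p = 0.762), and it was 0.020 with library size alone. Only ibudilast replicate 1, which had high choroid plexus markers, lay below the untreated range. The Pde1a to Pde1b log2 ratio went from −0.60 ± 0.38 to −1.59 ± 0.64 (SD, n = 5; exact permutation test, two-sided, p = 0.0159, adjusted p = 0.0265), a 1.99-fold shift away from Pde1a. That ratio did not pass without untreated replicate 1 (−0.86) or 5 (−0.94), both with adjusted p = 0.0661 by the exact permutation test. Pde1c was at 3.55 to 7.05 CPM in untreated and 2.78 to 4.73 CPM in ibudilast rats, on 46 to 110 expected counts per library, with a log2 fold change of −0.25 (95% interval −0.77 to 0.26; edgeR, adjusted p = 0.401). Without untreated replicate 4, the highest, it was −0.055, and without the 4 libraries −0.55 (adjusted p = 0.122). Neither Pde1a to Pde1c (−0.83, exact permutation test, p = 0.0794, adjusted p = 0.0992) nor Pde1b to Pde1c (0.16, exact permutation test, p = 0.571, adjusted p = 0.571) passed, although Pde1a to Pde1c did without untreated replicate 4 (−1.03, adjusted p = 0.0496). Without the 4 libraries these differences were −0.48 and 0.57.

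Pde2a encodes a dual enzyme that cGMP stimulates through its GAF domain, so that cGMP can lower cAMP. It was at 542, 404, 991, 536 and 565 CPM in untreated and at 512, 554, 626, 193 and 628 CPM in ibudilast rats. The highest value was in untreated replicate 3 and the lowest in ibudilast replicate 4, and the other 8 rats lay from 404 to 628 CPM in overlapping groups. The log2 fold change was −0.27 (95% interval −0.98 to 0.44; edgeR, adjusted p = 0.513). It was −0.051 without untreated replicate 3, −0.095 without ibudilast replicate 4, and 0.14 without the 4 libraries (adjusted p = 0.137), so that the sign of this difference rested on those libraries.

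**Figure D3:**
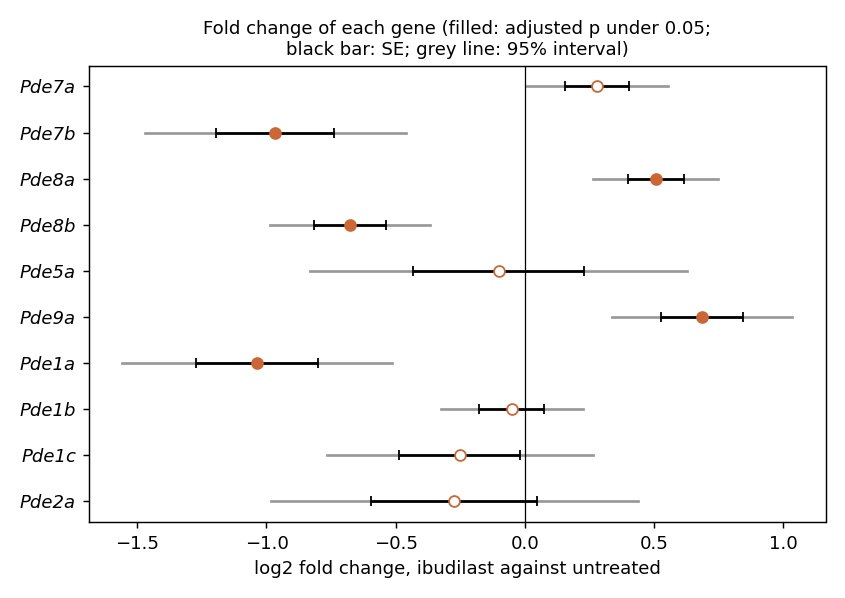
Log2 fold change of each gene between ibudilast and untreated rats, with black bars for the SE and grey lines for the 95% interval; filled points passed an adjusted p of 0.05. Pde7b, Pde8b and Pde1a are on the lower side, Pde8a and Pde9a on the higher side, and the widest intervals belong to Pde5a and Pde2a.

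**Figure D4:**
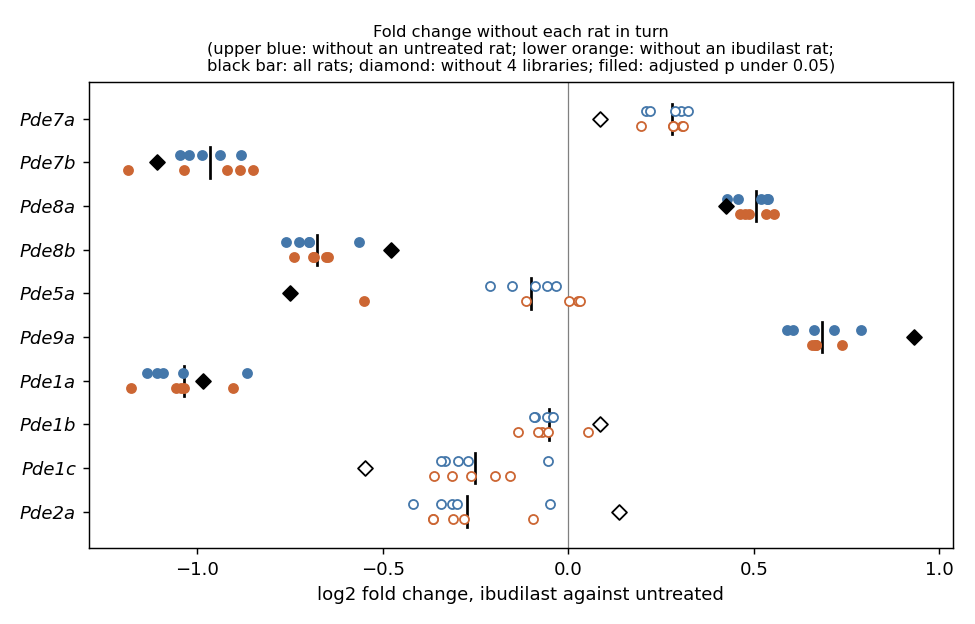
Log2 fold change of each gene with all rats (black bar), without each rat in turn (upper blue points for untreated, lower orange for ibudilast) and without 4 libraries together (diamond); filled symbols passed an adjusted p of 0.05. Symbols of the 5 genes that passed stay filled on their side of 0, while Pde5a passes without ibudilast replicate 4 and Pde2a changes sign without the 4 libraries.

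Marker genes of other cell types are given beside the 22.8% of all genes called lower and 24.3% called higher. Excitatory neuron markers had 3 of 11 lower and 0 higher, with summed levels of 5260 to 8001 CPM in untreated and 1560 to 6271 CPM in ibudilast rats. Dentate granule markers had 4 of 8 tested lower and 1 higher (sums of 336 to 577 and 199 to 384 CPM), with Tdo2 at 0 in all libraries. CA pyramidal markers had 2 of 7 lower and 0 higher (sums of 556 to 1476 and 284 to 897 CPM). Oligodendrocyte markers had 6 of 13 higher and 0 lower, with sums of 7932 to 15529 CPM in untreated and 16178 to 19213 CPM in ibudilast rats. Interneuron markers had 5 of 11 lower and 1 higher (sums of 803 to 1222 and 562 to 698 CPM). Endothelial markers had 5 of 8 lower and 0 higher (sums of 321 to 595 and 154 to 299 CPM), microglia markers 6 of 10 lower and 0 higher (sums of 546 to 1022 and 433 to 519 CPM), and astrocyte markers 4 of 9 lower and 0 higher (sums of 6286 to 9561 and 6137 to 8158 CPM). The sums did not overlap between the groups for the oligodendrocyte, interneuron, endothelial and microglia lists. Untreated replicate 3 alone set the top of the untreated endothelial, microglia and astrocyte sums and the bottom of the untreated oligodendrocyte sums. The part of these cell types in the falls of Pde1a, Pde7b and Pde8b and the rises of Pde8a and Pde9a was not tested.

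Genes that make or sense cGMP were examined beside the cGMP-hydrolysing PDEs. Of 14 genes of cGMP synthesis tested, 5 fell, 3 rose and 6 did not pass, with a median log2 fold change of −0.39 against 0.020 over all genes. For these lists too, 22.8% of all genes were called lower, 24.3% higher and 47.1% in either direction. Without untreated replicate 1 or 5, 3 rather than 5 passed as lower, and with the replicate block or at a threshold of 0.01, 2 did. The nitric oxide branch held Nos1, the neuronal nitric oxide synthase, which fell from 31.8 ± 6.65 to 15.6 ± 4.08 CPM (SD, n = 5; edgeR, log2 fold change −1.03, adjusted p = 0.00127). Gucy1b3, the beta subunit of the soluble guanylyl cyclase that nitric oxide activates, fell from 91.9 ± 16.6 to 47.9 ± 10.6 CPM (edgeR, adjusted p = 0.00134). Gucy1a2 and Gucy1a3 also fell (edgeR, adjusted p = 0.0288 and 0.0213). Not every nitric oxide gene of this list fell. Ddah2 rose (edgeR, log2 fold change 0.34, adjusted p = 0.0109), and Nos3 was at −0.024 (edgeR, adjusted p = 0.959). The membrane guanylyl cyclases that serve as natriuretic peptide receptors were higher. Npr1 rose from 25.1 ± 4.87 to 43.4 ± 11.7 CPM (edgeR, adjusted p = 0.00569) and Npr2 from 32.5 ± 6.57 to 54.1 ± 14.9 CPM (edgeR, adjusted p = 0.00838). Nppc, a natriuretic peptide gene, fell (edgeR, log2 fold change −0.75, adjusted p = 0.0283). Of 6 cGMP effector genes tested, only Prkg1, the cGMP-dependent protein kinase I, passed, and it fell by 1.54 on the log2 scale (edgeR, adjusted p = 4.42e-04). Prkg2 was at −1.52 with a wide SE of 0.72 and did not pass (edgeR, adjusted p = 0.105).

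Among 14 genes of calmodulin and its binding partners, 6 fell, 0 rose and 8 did not pass (22.8% of all genes were called lower and 24.3% higher). The calcineurin subunits Ppp3cb and Ppp3r1 fell, with log2 fold changes of −1.34 and −1.39, as did Camk2a with −1.57 (edgeR, adjusted p = 3.33e-04, 0.00164 and 0.00119). Of this list, 1 gene passed as higher without ibudilast replicate 1 or 4, with the replicate block, with DESeq2, with upper-quartile factors or with library size alone, and 2 rose and 9 fell without the 4 libraries. Only 3 fell at a threshold of 0.01. With the replicate block, or without untreated replicate 1, 4 or 5 or ibudilast replicate 1 or 2, 4 fell. On the cAMP side, 2 of 10 adenylyl cyclases fell and 1 rose, fewer in all than the 47.1% of all genes called, the rise of Adcy6 (log2 fold change 0.40, edgeR, adjusted p = 0.0405) being lost under several alternatives, RLE factors and leaving out untreated replicate 1, 4 or 5 or ibudilast replicate 1, 2 or 4 among them. Adcy9 fell from 28.3 ± 9.24 to 12.8 ± 3.50 CPM. Of 17 cAMP effector genes, 7 fell and 2 rose, beside the 22.8% and 24.3% of all genes. At a threshold of 0.01, 4 fell, and without the 4 libraries 4 rose. The kinase subunit Prkar2a was at −0.58. Of the cyclic nucleotide exporters, Abcc5, a cGMP exporter, rose from 89.2 ± 6.09 to 135 ± 8.19 CPM (edgeR, adjusted p = 9.32e-05), and Abcc4 was at −0.56 (edgeR, adjusted p = 0.0777), passing as lower without untreated replicate 1, without ibudilast replicate 1, with DESeq2 and without the 4 libraries.

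Of the other genes named as phosphodiesterases, 10 were tested, of which 7 fell, 1 rose and 2 did not pass (22.8% of all genes were called lower and 24.3% higher). Their median log2 fold change was −0.69, against −0.18 over the 10 genes described here and 0.020 over all genes. Over the 20 alternatives 5 to 8 fell. The count was 5 at a threshold of 0.01, with library size alone, and without untreated replicate 1 or ibudilast replicate 2 or 5. Without the 4 libraries, 7 fell and 2 rose. Pde12, whose enzyme acts on oligoadenylates and poly(A) rather than on cyclic nucleotides, was in this list and fell from 6.43 ± 0.606 to 3.44 ± 0.736 CPM (SD, n = 5; edgeR, adjusted p = 0.00131). Pde6d, which does not encode a catalytic enzyme, was counted too and was at −0.22 (edgeR, adjusted p = 0.0364). The difference between these sets of PDE genes was not tested.

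**Figure D5:**
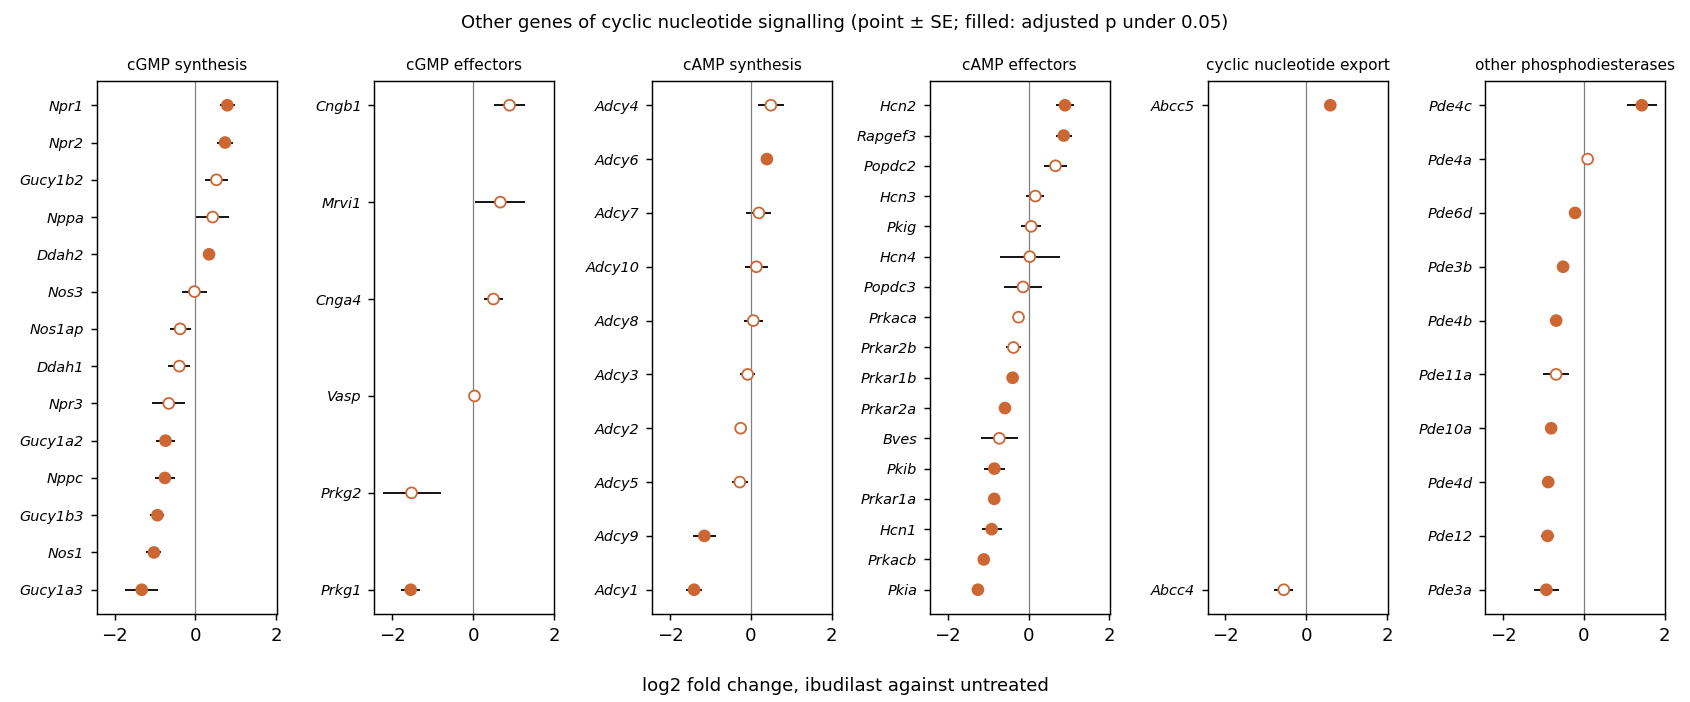
Log2 fold change ± SE of the tested genes of 6 lists, filled where the adjusted p was under 0.05, on a shared horizontal axis. Natriuretic peptide receptor cyclases (Npr1, Npr2) and Ddah2 are on the higher side of cGMP synthesis. The soluble cyclase subunit Gucy1b3, Nos1 and Nppc are on its lower side, and Prkg1 is the lowest of the cGMP effectors.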

How the data were processed

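Left hippocampal RNA of 10 rats was sequenced in stranded poly(A) libraries (Kapa Stranded mRNA kit), per the labels. The table used holds expected counts per gene symbol, deposited by the authors and not normalized. Tools in the submitters' processing notes are RSEM 1.2.15, Bowtie2 2.1.0, bcl2fastq and edgeR, and the build is rn6. Their roles, the annotation and the strand setting are not given in the sources used here. A further deposited table, the same counts each divided by a constant per library, was not used.

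Expected counts were rounded (12.0% of values were not whole, while all 100 values of the 10 genes were, within 0.001). Groups came from sample titles. Genes were tested in R 4.3.3 with edgeR 4.0.16 (limma 3.58.1, quasi-likelihood, robust, after filterByExpr and TMM scaling). Benjamini-Hochberg adjustment was over 12355 genes, with a threshold of 0.05. The fit was also run on simulated counts in which few genes changed, whereas 47.1% of genes were called here. That run therefore cannot check the threshold for these data. TMM-scaled library sizes gave the CPM values, and ratios were taken on log2 CPM with a prior count of 2. Ratios were compared by exact permutation of the 10 rats. The 10 genes and all lists were chosen with earlier results of these data known. From each pathway list up to 4 genes were named, those of smallest p that reached 1 CPM in the mean of either group. The result of 1 gene that this names is not reported here. Of the others, Adcy1, Adcy2, Pkia, Prkar1a, Prkacb, Pde4b, Pde4d, Pde10a, Cngb1 and Cnga4 are covered by the counts alone. Beyond this rule, Gucy1a2, Gucy1a3, Ddah2, Nos3, Nppc and Pde6d were named. No pair of libraries of a group agreed within sampling noise (lowest chi-square per gene 11.5). CPM is not per length, so levels are not compared between genes. On GRCr8, Ppp1r1a overlaps Pde1b and Mir139 overlaps Pde2a, and their reads may not be told apart. Other settings tried were DESeq2 1.42.0, limma-voom, scaling by RLE, by upper quartile or by library size alone, no and stricter low-count filters (10 counts in 5 libraries and a mean of 1 CPM), a replicate block, a threshold of 0.01, a prior count of 0.5, and leaving out each rat or 4 libraries.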

Additional observations from a re-analysis of the deposited data

Results flagged for a closer look

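Of 20 groups of 5 rats, 10 genes in each of the groups, 3 held a rat farther from its group than Dixon's 95% critical value of 0.71 for the gap divided by the range, on CPM, and chance flags about 1 group in 20. For Pde2a, untreated replicate 3 was at 991 CPM with the next rat at 565 CPM (0.726). For the same gene, ibudilast replicate 4 was at 193 CPM with the next rat at 512 CPM (0.735). For Pde9a, ibudilast replicate 4 was at 29.1 CPM with the next at 39.0 CPM (0.889). Both libraries also stood apart by marker genes, and the part of that in these values was not tested. Pde5a in ibudilast replicate 4, at 15.4 CPM, was just inside the limit (0.707).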

How the results depend on the processing

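Over 20 alternatives to the main fit, 191 of the 200 fold changes of the 10 genes kept their direction and their side of the threshold, and the counts of genes called were 2 higher in each and 3 or 4 lower. Pde5a passed without ibudilast replicate 4 and without the 4 libraries. The sign turned for genes that did not pass. Pde1b was at 0.0205 with library size alone, at 0.0841 without the 4 libraries and from −0.135 to 0.0520 with single rats left out, the sign turning without ibudilast replicate 1. Pde5a was at −0.55 to 0.0310 with single rats left out, the sign turning without ibudilast replicates 2, 3 and 5, and Pde2a at 0.14 without the 4 libraries. Over all genes, 3004 were higher and 2813 lower, and at a threshold of 0.01 there were 1859 lower. RLE factors gave 2874 higher and 2948 lower, and library size alone 3410 and 2297. With single rats left out, 2549 to 3068 were higher and 2461 to 3224 lower. The Pde1a to Pde1b ratio difference ran from −1.13 to −0.73 with single rats left out, Pde1a to Pde1c from −1.03 to −0.55, Pde1b to Pde1c from −0.0290 (without untreated replicate 4) to 0.34, Pde7a to Pde7b from 1.14 to 1.39 and Pde8a to Pde8b from 1.00 to 1.28. Without the 4 libraries the differences were −1.05 for Pde1a to Pde1b, −0.48 for Pde1a to Pde1c, 0.57 for Pde1b to Pde1c, 1.22 for Pde7a to Pde7b and 0.90 for Pde8a to Pde8b, where 3 against 3 rats allow no p under 0.10, so that none could pass.

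Nothing in the labels says that replicate numbers pair the rats. Correlations of same-numbered rats' deviations were −0.33 to 0.42, and none of the 5 correlated best with its own number. Libraries that stood apart by marker genes enter these correlations, so they cannot exclude a pairing. With the replicate block Pde1a (adjusted p = 0.0114), Pde7b (0.0105), Pde8a (0.0155), Pde8b (0.0121) and Pde9a (0.00583) passed and the other 5 did not. In ratios with the replicate block, the differences of −0.99 for Pde1a to Pde1b, 1.28 for Pde7a to Pde7b and 1.17 for Pde8a to Pde8b did not pass (adjusted p = 0.0781, exact sign-flip test), and 5 pairs allow no p under 0.0625. Pde1c (46 to 110 expected counts per library), Pde5a (67 to 260), Pde7a (84 to 140) and Pde7b (52 to 260) rest on low counts, which limit small differences.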
